A study of Mus musculus with 4 samples.

Results

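The embryonic pluripotency network was examined here through 10 genes that keep embryonic stem cells undifferentiated or that mark them, leaving out Sox2 itself: Pou5f1, Nanog, Zfp42, Sall4, Esrrb, Utf1, Dppa4, Fgf4, Fbxo15 and Tdgf1. Its members were all probe sets that the platform annotation assigns to one of these genes alone. A probe set is a group of short array probes read together as 1 measurement of a transcript. There were 18 of them, of 45037 probe sets on the array after the Affymetrix controls were left out. All 10 genes were represented, 6 of them by 1 probe set each and 4 by several. The rule uses no measured value, but the genes were proposed with earlier results of these data known.

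RNA came from mouse skin squamous cell carcinomas that had been induced chemically. Tumour epithelial cells had been sorted as Epcam-positive and as lacking CD45, CD31 and CD140a, and then split by a green fluorescent reporter for Sox2. Sox2-GFP-positive cells (n = 2 arrays) were compared with Sox2-GFP-negative cells (n = 2 arrays), and both groups carried the malignant tumour label. The series text names 2 tumours of 2 mice as the source. The labels used here give neither strain, age nor the construction of the reporter, and the negative cells passed the same epithelial gate, with no normal skin in the comparison. Each value was set beside its own array. The 5th percentile of the deposited log2 intensities was 3.37 and 3.36 in the positive arrays (replicates 1 and 2) and 3.34 and 3.37 in the negative arrays. The lower quartile, the 25th percentile of an array, was 4.25 and 4.19 against 4.23 and 4.24, and the medians ran from 5.49 to 5.60. Sox2 was read by 1 probe set at 3.50 and 3.27 in positive cells and at 3.14 and 3.43 in negative cells, so the groups overlapped and this probe set did not check the sort.

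In the early embryo, the transcription factor Oct4 (encoded by Pou5f1) binds DNA next to Sox2 on composite elements, and with Nanog the pair switches on other pluripotency genes and its own genes. Fgf4, Utf1 and Fbxo15 are textbook targets of this pairing, and Fgf4 then acts as a secreted signal that prepares embryonic cells to differentiate. In adult epidermis the network is normally silent, whereas Sox2 is known from squamous carcinomas, in which it can be expressed without its embryonic partners. The comparison therefore asked whether cells that carry the Sox2 reporter differ from reporter-negative tumour cells in the rest of the network.

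Promoter sequence shows how the pairing is written in DNA, so 3 windows are printed: Nanog, which holds the composite element, Zfp42, which holds the Oct4 core alone, and Pou5f1, which holds neither at its first start site. RefSeq promoter windows (GRCm38.p6) were found for 7 of the 10 genes, and the 250 bases before the start were read; Sall4, Dppa4 and Fbxo15 were not matched. Searched on both strands were the Sox cores CATTGT and CTTTGT, the octamer cores ATGCAAA and ATGCTAA, and a Sox core followed within 3 bases by an octamer core as the composite. Capitals mark these matches, which appear as their reverse complement where they lie on the other strand. The Nanog window is chr6:122707239-122707488 (+ strand), the Zfp42 window chr8:43307010-43307259 (- strand) and the Pou5f1 window chr17:35505782-35506031 (+ strand), each read 5′ to 3′ towards the gene.
Nanog: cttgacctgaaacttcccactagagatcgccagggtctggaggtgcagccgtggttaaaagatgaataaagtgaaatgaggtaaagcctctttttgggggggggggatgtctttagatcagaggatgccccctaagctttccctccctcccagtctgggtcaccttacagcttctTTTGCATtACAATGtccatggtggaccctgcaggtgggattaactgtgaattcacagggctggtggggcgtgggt
Zfp42: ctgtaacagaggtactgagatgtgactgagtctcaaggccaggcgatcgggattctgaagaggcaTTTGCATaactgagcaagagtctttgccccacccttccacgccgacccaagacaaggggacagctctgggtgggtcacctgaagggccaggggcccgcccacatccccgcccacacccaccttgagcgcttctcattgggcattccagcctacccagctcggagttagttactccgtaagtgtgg
Pou5f1: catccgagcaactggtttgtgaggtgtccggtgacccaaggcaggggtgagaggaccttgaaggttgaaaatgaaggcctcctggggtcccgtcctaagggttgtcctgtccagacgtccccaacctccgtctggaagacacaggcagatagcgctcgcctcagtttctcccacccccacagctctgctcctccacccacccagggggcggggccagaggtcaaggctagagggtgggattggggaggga

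In Nanog the octamer core lay at -75 to -69 and the Sox core at -67 to -62 from the start, 1 unbroken element of 14 bases, TTTGCATTACAATG. A composite of this form occurred in 10 of 32841 promoter windows of the same length, a share of 0.0304% that includes Nanog itself. These windows belonged to 9 of 27018 genes. A second Nanog window, which overlaps the printed one, held the same element at -151 to -138 from its own start. Either octamer core alone, as in Zfp42 at -185 to -179, occurred in 6.53% of windows, and either Sox core in 25.2%. A second Pou5f1 window, at another start site, held a Sox core at -158 to -153, while the windows of Fgf4, Utf1, Tdgf1 and Esrrb held none of these letters. A match is a description of the letters in this window, and the arrays measured no binding.

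Most values of the network lay below the lower quartile of their array. Of the 72 member values, 5 were below the 5th percentile of their array, 39 lay between it and the lower quartile, 28 were above the lower quartile and 6 above the median. Above the lower quartile were 17 of 36 values in positive cells and 11 of 36 in negative cells. By array these were 10 of the 18 probe sets in positive replicate 1, 7 in positive replicate 2, 5 in negative replicate 1 and 6 in negative replicate 2. Probe sets above the lower quartile in all 4 arrays numbered 4 of 18, beside 67.9% of all probe sets. They belonged to Utf1 (2 probe sets), Esrrb and Fgf4. Nanog, Zfp42, Fbxo15 and Tdgf1 were at or below the lower quartile in every array. The values hold no detection calls, so a reading this low bounds a transcript and does not show it absent. Arrays of sorted cells also cannot tell fewer cells of a kind from less RNA per cell.

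**Figure D1:**
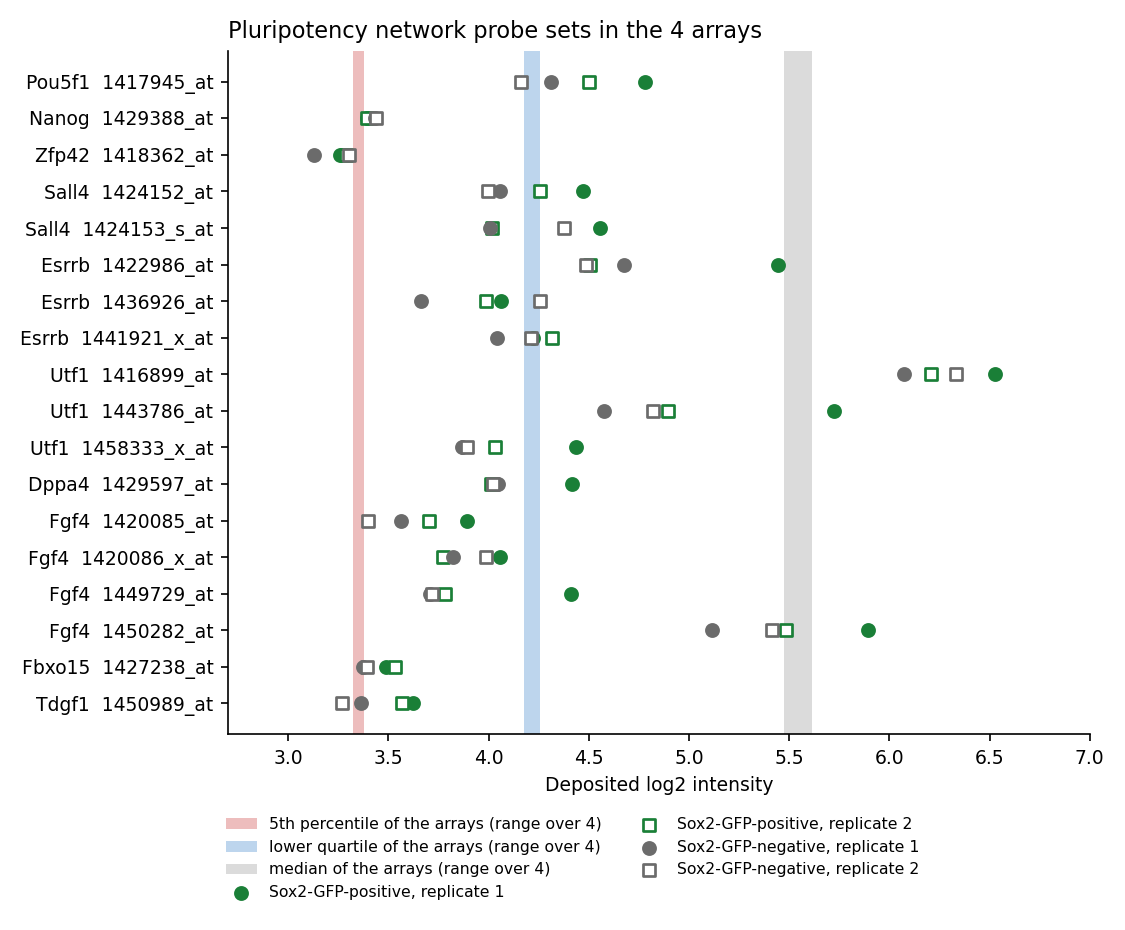
Deposited log2 intensity (horizontal axis) of each of the 18 probe sets (rows) in the 4 arrays, with green symbols for Sox2-GFP-positive and grey for Sox2-GFP-negative arrays; bands span the 5th percentile, lower quartile and median over the arrays. Nanog and Zfp42 sit by the 5th percentile in all 4 arrays, and 1 Utf1 probe set (1416899_at) lies above the median in all 4.

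No member differed between the groups by the test. Limma, which pools the spread over all probe sets, called 0 of the 18 at an adjusted p of 0.05, beside 0% of all 45037 probe sets, and adjusted p ran from 0.442 to 0.986 over the members. At an unadjusted limma p under 0.05 stood 0 members in either direction. At that level 3349 of all 45037 probe sets were higher in positive cells (7.44%) and 2976 were lower. Log2 differences, taken as positive minus negative, ran from -0.04 to 0.61 with a median of 0.23, and the 95% interval of each of the 18 included 0. On the deposited scale the widest bound was 1.49, so a larger change in intensity than this was outside every interval of this fit. Dim probe sets compress the change of their transcript, and other scalings of the arrays, given below, move these bounds.

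Oct4 and Nanog are the core regulators beside Sox2. Pou5f1 (1417945_at) stood at 4.78 and 4.50 in positive cells, against 4.31 and 4.16 in negative cells. Both positive arrays lay above both negative ones, and the lower negative array fell under its lower quartile while the others lay above theirs. Pou5f1 thus differed by 0.40 ± 0.20 (SE, n = 2 per group, 95% interval -0.12 to 0.93, limma adjusted p = 0.442). Nanog (1429388_at) read 3.39 and 3.40 in positive and 3.43 and 3.44 in negative arrays. These 4 values all lay between the 5th percentile and the lower quartile, and Nanog was the 1 member with a difference below 0, at -0.04 ± 0.17 (SE, n = 2 per group, limma adjusted p = 0.935).

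Sall4, Esrrb and Zfp42 encode transcription factors that work with this core. Sall4, a zinc finger protein that helps to maintain Pou5f1 expression, was read by 2 probe sets that differed. In 1424152_at the values were 4.47 and 4.26 in positive cells against 4.06 and 3.996 in negative cells, with the positive pair above and the negative pair below their lower quartiles. In 1424153_s_at they were 4.56 and 4.02 against 4.01 and 4.38, so the groups overlapped. The differences were 0.34 ± 0.18 and 0.09 ± 0.27 (SE, n = 2 per group).

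Esrrb is an orphan nuclear receptor that sustains self-renewal. Its probe set 1422986_at read 5.44 in positive replicate 1 and 4.50 in positive replicate 2, against 4.68 and 4.49 in the negative arrays. A single high array thus carried the difference of 0.39 ± 0.36 (SE, n = 2 per group), which was -0.08 without that array. The other Esrrb probe sets read from 3.66 to 4.32 and differed by 0.07 and 0.14. Zfp42, also known as Rex1 and a classical marker of undifferentiated stem cells, read 3.26 and 3.29 against 3.13 and 3.30. All 4 of these values were below the 5th percentile of their array, and the groups overlapped (difference 0.06 ± 0.18 SE, n = 2 per group).

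Utf1 and Dppa4 encode chromatin-associated proteins of stem cells. Utf1 was the 1 gene above the array median in all 4 arrays, through 1416899_at, at 6.53 and 6.21 in positive cells and 6.07 and 6.33 in negative cells. The groups overlapped there, with a difference of 0.16 ± 0.22 (SE, n = 2 per group). A second probe set, 1443786_at, read 5.72 and 4.89 against 4.58 and 4.82, which gave the widest difference of the network, 0.61 ± 0.33 (SE, n = 2 per group, 95% interval -0.27 to 1.49, limma adjusted p = 0.477). Positive replicate 1 stood 1.15 above its same-number negative array, whereas positive replicate 2 stood 0.07 above. The third, 1458333_x_at, read 4.44 and 4.03 against 3.87 and 3.89. Probe sets ending in x_at or s_at can share probes with other transcripts, so the reading of 1458333_x_at need not come from Utf1 RNA alone. Why 1416899_at and 1443786_at, which lack these endings, read differently was not tested. Dppa4 read 4.41 in positive replicate 1 and 4.01 to 4.05 in the other 3 arrays, with overlapping groups.

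Fgf4, Fbxo15 and Tdgf1 stand downstream of the core. Fgf4, the secreted growth factor, was read by 4 probe sets, of which 3 share a sequence record in the platform annotation and read at most 4.41. The probe set annotated with a RefSeq transcript, 1450282_at, read 5.89 and 5.49 in positive and 5.12 and 5.41 in negative arrays. Positive cells were higher there without overlap, by 0.43 ± 0.24 (SE, n = 2 per group, limma adjusted p = 0.487), with a gap of 0.07 between the closest arrays. Of the other Fgf4 probe sets, 1420085_at and 1449729_at gave differences of 0.31 and 0.38 without overlap and 1420086_x_at gave 0.01 with it. Fbxo15, an F-box protein used as a reporter of reprogramming, read 3.49 and 3.54 against 3.37 and 3.39. Tdgf1, also called Cripto, a cell-surface co-receptor for the ligand Nodal, read 3.62 and 3.57 against 3.36 and 3.27, with 1 negative value below the 5th percentile. In both genes the groups were separate but all values stayed under the lower quartile, and the differences were 0.13 ± 0.17 and 0.28 ± 0.17 (SE, n = 2 per group).

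**Figure D2:**
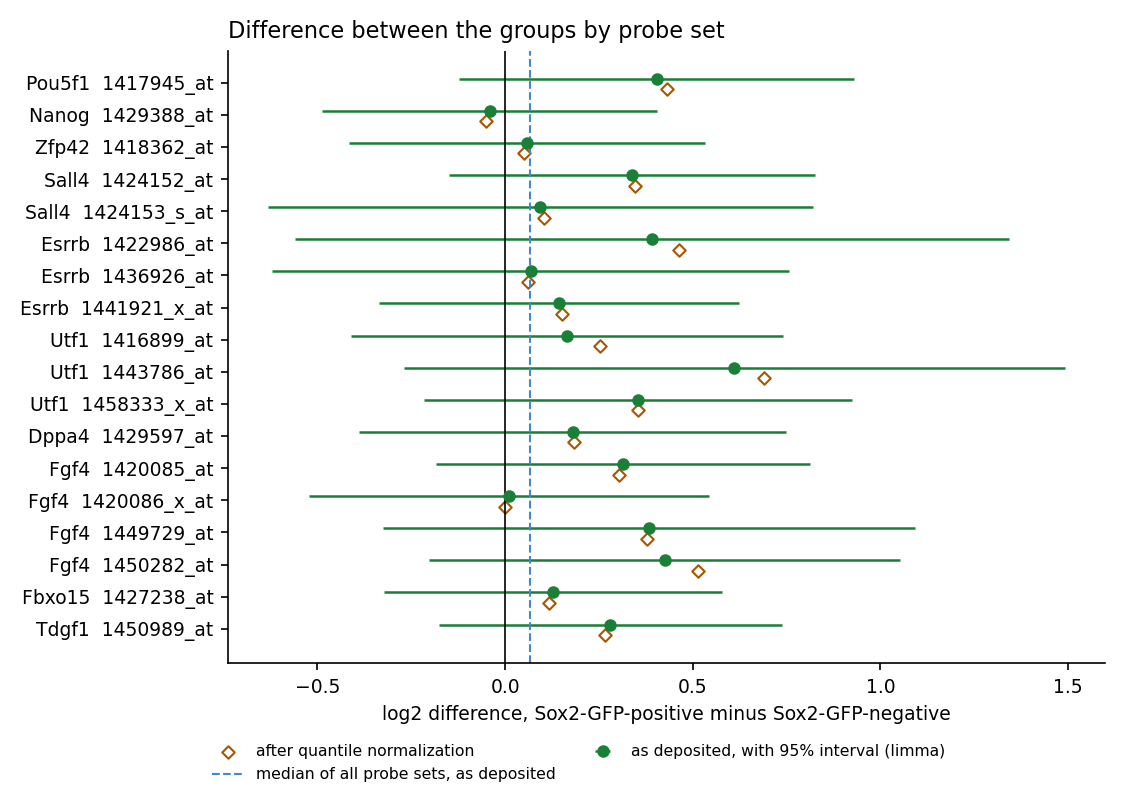
Log2 difference by Sox2-GFP status, positive minus negative (horizontal axis), for each probe set (rows); filled points with bars are the deposited values with the 95% limma interval, open diamonds the values after quantile normalization, and the dashed line the median of all probe sets. All 18 intervals include 0, and differences run from -0.04 for Nanog to 0.61 for Utf1 1443786_at.

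None of the members passed the test, and their differences are described here by sign. Positive cells had the higher mean in 17 of 18 member probe sets, beside 58.1% of all probe sets and 57.7% of those below the median mean level. The groups did not overlap, with positive above, in 10 of the 18, beside 29.7% of all probe sets, and with positive below in 1 (Nanog), beside 18.4%. Among the 10, the gap between the nearest arrays ran from 0.01 to 0.21. With 1 probe set per gene, the one with the highest mean, 4 of 10 genes were separate with positive above, beside 35.5% of all genes under the same choice. The median difference of all probe sets was 0.07 (0.05 for those below the median mean level). Probe sets of 1 gene share a transcript and are not independent, so these counts carry no test.

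Values by replicate were uneven. Positive replicate 1 held the highest of the 4 values in 13 of 18 member probe sets (72.2%), beside 34.1% of all probe sets and 40.0% of those below the median mean level. Set against the negative array of the same number, the median member difference was 0.41 for replicate 1, with 17 of 18 above 0, and 0.07 for replicate 2, with 11 of 18 above 0. Over all probe sets these medians were 0.09 and 0.03. Without positive replicate 1 the median member difference was 0.11, with 13 of 18 above 0, while without positive replicate 2 it was 0.37. Leaving out negative replicate 1 also gave 13 of 18 above 0, with a median of 0.23.

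A list of genes known mainly from other organs was read beside the network; whether skin tumour cells transcribe them was not measured otherwise. The list named 20 genes of liver, pancreas, pituitary, sperm, lens and other organs, such as Alb, Ins2, Gcg and Prm2, and 19 were measured by 36 probe sets. Positive cells had the higher mean in 32 of these 36, with a median difference of 0.22. The groups were separate with positive above in 15 (41.7%) and below in 3 (8.33%), beside 29.7% and 18.4% of all probe sets. Positive replicate 1 held the highest value in 26 of the 36 (72.2%). Above the lower quartile in all 4 arrays were 15 of the 36, against 4 of 18 for the network. None was called. The difference between this list and the network was not tested. Pomc is also made in skin, by keratinocytes and melanocytes. Prm1, a protamine of sperm, had 1 probe set (1415955_x_at) with a mean of 8.07, and its 3 probe sets were all separate below, by -0.38 to -0.29. Genes with the smallest p were Afp (difference 0.84), Gh (1.15), Pomc (0.48) and Crygd (0.46), with a lowest limma adjusted p of 0.252.

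**Figure D3:**
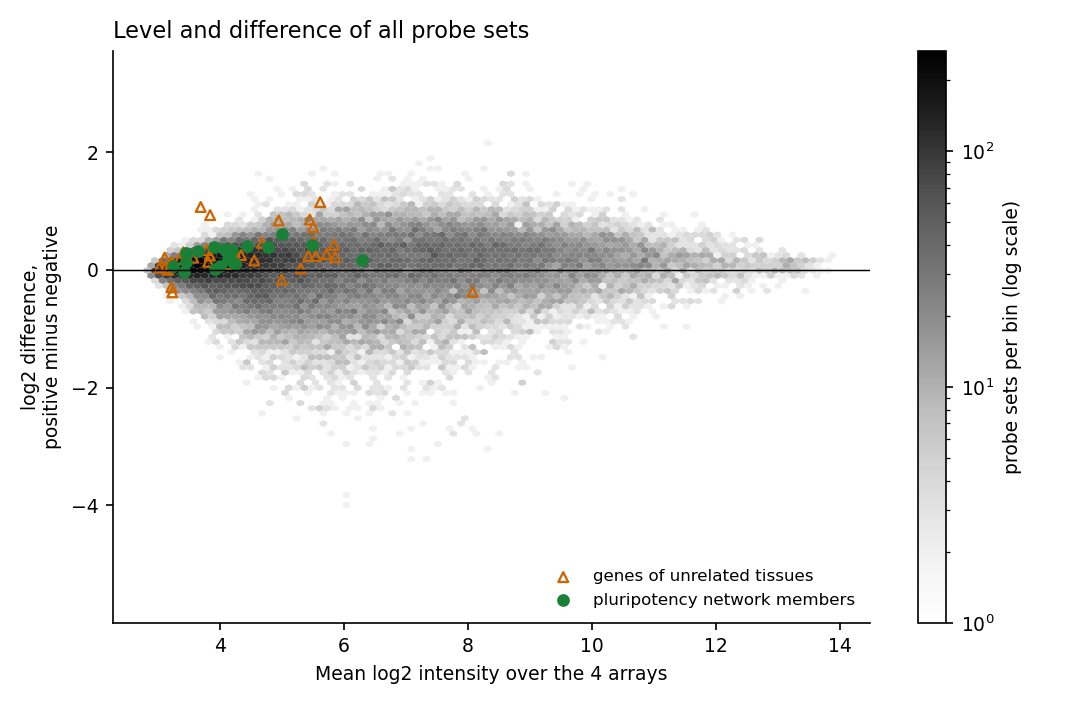
Mean log2 intensity over the 4 arrays (horizontal axis) against the log2 difference, positive minus negative (vertical axis), for all 45037 probe sets in grey bins, with the network in green and genes of unrelated tissues as open triangles. The members lie at the dim end with small differences, 17 of 18 above 0, among the triangles, of which 32 of 36 are above 0.

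Members were called only when the arrays were scaled on spike-in controls, and not with the other scalings tried. When arrays were set equal on 27 poly-A spike-in probe sets, bacterial transcripts added to the RNA, the median difference of all probe sets went from 0.07 to 0.75. After that step 13 of the 18 members were called higher in positive cells, beside 40.5% of all probe sets, and with the 24 spike-in probe sets that leave out Trp, 18 of 18 were, beside 59.3%. This step adds 1 constant per array to every probe set, so it moves members and all other probe sets alike. The groups were then separate with positive above in 18 of 18 members, beside 76.7% of all probe sets (80.1% without Trp). Over the 27 spike-in probe sets the mean was 8.97 and 8.89 in positive and 9.49 and 9.74 in negative arrays. Whether the amount of spike-in or of sample RNA differed was not tested. Quantile normalization gave a median member difference of 0.26 and 16 of 18 above 0, with none called.

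The wider list of pluripotency transcription factors spanned the range of the arrays. It was measured through 19 of its 20 genes by 38 probe sets, with a median difference of -0.02, and 0 were called in either direction. Separate above were 10 (26.3%) and below 7 (18.4%), beside 29.7% and 18.4% of all probe sets. Of the 19 genes, 7 had no probe set above the lower quartile in all 4 arrays, namely Sox2, Nr0b1, Prdm14, Otx2, Gbx2, Foxd3 and Zscan10. Klf4 and Myc, which keratinocytes also use, lay above the array medians. Klf4 (1417395_at) read 12.58 and 12.66 in positive and 12.51 and 12.83 in negative arrays, and Myc read 11.25 and 11.22 against 11.58 and 11.34. The members of this list with the smallest p were Stat3, the transducer of leukaemia inhibitory factor in stem cells, Klf5, Klf2 and Otx2. Stat3 (1459961_a_at) read 6.34 and 6.71 against 7.998 and 7.85, a difference of -1.40 ± 0.215 (SE, n = 2 per group, limma adjusted p = 0.226), and 3 of its 4 probe sets were separate below. Klf5 had 3 probe sets: 1430255_at differed by -0.90 and a second by -1.01, both separate below, and 1451021_a_at by 0.09 with overlapping groups. Klf2 differed by -0.87, while Otx2, a factor of cells leaving the naive state, differed by 0.42 with all 4 values under the lower quartile.

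Receptors of Fgf4 and the Nodal pathway of Tdgf1 were mostly above the lower quartile. Of 17 genes 16 were measured by 38 probe sets, 14 with a probe set above the lower quartile in all 4 arrays, and 0 were called. Fgfr1, a receptor of Fgf4, had the widest difference, with 1425911_a_at at 8.01 and 8.998 in positive cells, against 10.85 and 10.47. All 3 Fgfr1 probe sets were separate below, by -2.15 to -2.01 (lowest limma adjusted p = 0.230). Fgfr2, the main epithelial receptor gene of the family, ran the other way in 1433489_s_at, at 10.996 and 11.44 against 10.61 and 10.46. Its other probe sets, 1420847_a_at and 1443211_at, differed by 0.41 and 0.09 with overlapping groups. Acvr1b, which encodes a type I receptor for Nodal, read 8.79 and 9.35 against 10.31 and 10.01 in 1433725_at, a difference of -1.09 ± 0.27 (SE, n = 2 per group, limma adjusted p = 0.262). Its other probe set, 1422098_at, differed by -0.21 with overlapping groups (limma adjusted p = 0.715). Lefty1, a secreted Nodal inhibitor, read 6.10 and 6.08 against 5.52 and 5.26, a difference of 0.70 ± 0.19 (SE, n = 2 per group, limma adjusted p = 0.277).

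Other genes of the embryonic stem cell state were read by 25 probe sets of 14 genes (of 15 listed), and 0 were called. Lin28a, Lin28b, Dppa2, L1td1, Tcl1 and Tet1 had no probe set above the lower quartile in all 4 arrays. Dppa5a, a stem cell RNA-binding protein, read 6.25 and 6.05 against 5.76 and 5.28, a difference of 0.63 ± 0.24 (SE, n = 2 per group, limma adjusted p = 0.360). Tet2, an enzyme that oxidises methylated DNA and is widely expressed, differed by -0.99 in 1438781_at, and Dnmt3l and Tet1 by -0.47 and -0.37 in their probe sets with the smallest p. Germ cell markers, which share Pou5f1, Sall4 and Nanog with the embryo, were read by 9 probe sets of 8 genes (of 9 listed). Ddx4, Dazl and Mael were at or below the lower quartile in every array, and the mean level of the list ran from 3.96 to 4.08 over the 4 arrays. None was called; the smallest p belonged to Sycp1 (difference -0.56), Stra8 (0.31), Tex19.1 (0.36) and Dnd1 (0.14).

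**Figure D4:**
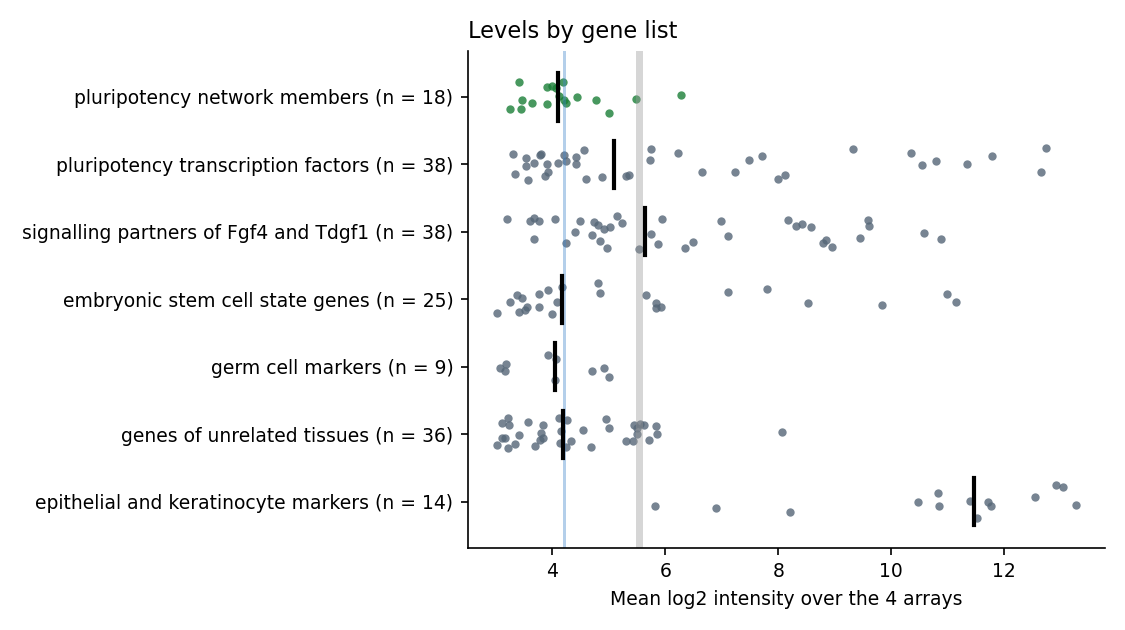
Mean log2 intensity over the 4 arrays (horizontal axis) of every probe set of the network and of 6 gene lists (rows, n in probe sets), with black bars for list medians and bands for the lower quartile (blue) and median (grey) of the arrays. The network, germ cell and unrelated-tissue rows cluster near the lower quartile with medians of 4.09, 4.05 and 4.19. The embryonic stem cell state row has a similar median of 4.17 but reaches 11.15, and the epithelial and keratinocyte row has a median of 11.46.

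Nearest patterns were sought for the 2 probe sets that lay above the lower quartile in all arrays and whose groups were separate. Likeness was the Euclidean distance over the 4 log2 values after each probe set's own mean had been taken off. For Utf1 (1443786_at) the nearest named genes were Fzd9, 2810001G20Rik and Ccdc86, at distances of 0.0250, 0.0328 and 0.0483. For Fgf4 (1450282_at) they were Pclaf, Exosc3 and Sf3b4, at 0.0205, 0.0238 and 0.0256. Within a distance of 0.1 lay 17 named probe sets for Utf1 (0.0487% of those compared) and 149 for Fgf4 (0.426%).

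Markers of cell types outside the gate were read in both groups, and none was called. Fibroblast markers (13 probe sets) had a mean level of 8.31 and 6.05 in positive and 10.06 and 8.55 in negative arrays, and 11 were separate below. The mean was 5.64 and 4.92 against 7.35 and 5.66 for endothelial markers, 5.79 and 5.41 against 6.92 and 5.64 for immune markers, and 5.20 and 4.61 against 6.35 and 5.85 for melanocyte markers. The array means of the groups overlapped for immune markers and came closest at 5.64 and 5.66 for endothelial markers. In each of these lists 2 of 7 probe sets were separate below (5 of 9 for melanocyte markers). Of all probe sets, 18.4% were separate below. Col1a1 (1423669_at), a collagen gene of fibroblasts, read 12.57 and 9.60 against 13.68 and 12.76. Every epithelial and keratinocyte marker probe set was above the lower quartile in all 4 arrays, with Epcam (1416579_a_at) at 10.75 and 11.79 against 11.24 and 11.80. The smallest p there belonged to Itgb4 (difference 1.22), Itga6 (0.59), Cdh1 (-0.96) and Trp63 (0.37). Lum, Col1a2, Dcn and Pdgfra led the fibroblast list by p, with differences of -3.12, -2.25, -3.18 and -0.80, and Emcn, Cdh5, Cldn5 and Kdr the endothelial one, with -1.98, -1.63, -0.84 and -0.85. Cd3e (-1.10), Cd52 (-0.74), Cd68 (0.35) and Tyrobp (-1.18) led the immune list, and Tyrp1 (-2.42), Mlana (-1.62), Dct (-1.79) and Pmel (-0.32) the melanocyte list. Of the genes for the excluded surface proteins, Pecam1 (CD31) read 5.57 and 6.41 against 8.44 and 6.27, and Pdgfra (CD140a, 1421917_at) 5.93 and 4.85 against 7.83 and 5.96. Ptprc (CD45, 1422124_a_at) read 3.79 and 4.30 against 6.40 and 3.68. None of these probe sets was called. Negative replicate 1 was the highest array in 12 of 13 fibroblast and 7 of 7 endothelial probe sets, and in 0 of 18 members of the network. Among the genes of unrelated tissues it was the highest in 1 of 36 probe sets (2.78%). It was the highest in 19.9% of all probe sets and in 21.5% of those below the median mean level. Fgfr1 and Acvr1b are also expressed by stromal cells; what part the stromal signal has in their values, or in any member's, was not tested.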

How the data were processed

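RNA of 4 samples was hybridised to whole-genome mouse Affymetrix arrays after sorting, per the labels' protocols. The authors deposited log2 values, 1 column per sample; how background, scaling and probe set summary were handled is not given here in any source, beyond R 2.14.0 in the submitters' processing notes. The log2 scale was read from the values (2.73 to 14.07 without controls). Groups and replicate numbers came from the sample titles. The 64 control probe sets were left out, and the platform annotation named 34945 of 45037 probe sets by 1 symbol. Limma 3.58.1 in R 4.3.3 (lmFit, eBayes) was run on all 45037 probe sets with group as the only term. Benjamini-Hochberg adjustment was over all of them, with a threshold of 0.05. A check on simulated data required only that the mean estimated difference lay near the planted one, and it set no condition on calls. The limma fit had 2 residual degrees of freedom and a prior of 2.56. With 2 arrays per group, their number limits precision, and p-values measure the spread between these samples. Percentiles were taken per array over the same probe sets.

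The members and the gene lists were chosen with earlier results of these data known. Named genes were all members, the 4 genes of each list with the smallest p, Sox2, the sort markers and the likeness neighbours; Klf4, Myc, Prm1, Col1a1 and genes named for lying low were chosen after their values were seen. Alternatives were a replicate block, quantile normalization, equal medians, spike-in scaling, trended and robust priors, a filter on dim probe sets, 1 probe set per gene and leaving out each array; spike-in scaling without Trp was added after seeing the data.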

Additional observations from a re-analysis of the deposited data

How the results depend on the processing

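The count of members called was 0 with the replicate block, quantile normalization, equal medians, either prior, an adjusted p of 0.1, no dim probe sets, 1 probe set per gene and without each array in turn; it was 13 after spike-in scaling and 18 after spike-in scaling without Trp. Both groups use replicate numbers 1 and 2, but no label says that a number marks a tumour. Differences between replicates 1 and 2 correlated across probe sets with r = 0.18 between the groups (genes are not independent replicates), and the replicate block called 0 members and changed no call. The filter on dim probe sets left 1 of the 18 members (Utf1).

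The count of members separate with positive above (10) was 18 after either spike-in scaling (76.7% of all probe sets, 80.1% without Trp), 4 with 1 probe set per gene (35.5% of genes) and 0 with a gap of 1 log2 unit (0.462%). The count separate below (1) was 0 after equal medians (14.2% of all probe sets), after either spike-in scaling (2.65%, 2.04% without Trp) and with that gap (1.37%). Without positive replicate 1 it was 3 of 18 (31% of all probe sets), and without negative replicate 1 also 3 (30.2%). Without positive replicate 2 or negative replicate 2 it was 1 (32.4% and 28.9% of all probe sets). The count above the lower quartile in all arrays (4) was 16 above the 5th percentile, 1 above the median and 12 when 1 array sufficed.

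Nanog turned to 0.040 after equal medians, 0.64 after spike-in scaling and 0.75 without Trp, which follows from these scalings since each moves every probe set by the same amount per array. Fgf4 1420086_x_at went to -0.000246 after quantile normalization. Leaving out single arrays gave differences of -0.028 to 0.15 for Zfp42, -0.18 to 0.36 for Sall4 1424153_s_at, -0.078 to 0.86 for Esrrb 1422986_at, -0.23 to 0.36 for Esrrb 1436926_at, -0.020 to 0.38 for Dppa4 and -0.13 to 0.16 for Fgf4 1420086_x_at. The cause of these changes on leaving out arrays and on quantile normalization was not tested. These are dim probe sets on 4 arrays, and a change smaller than their intervals could not be told from 0. The intervals are not adjusted for the number of probe sets, so a change beyond them could also go uncalled. Of all 45037 probe sets 0 were called, though their differences ran from -5.56 to 3.28.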

Other observations

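Among the genes of unrelated tissues, Afp, the alpha-fetoprotein of fetal liver and yolk sac, was read by 5 probe sets, and all 5 were separate with positive cells above, by 0.21 to 1.07. Its probe set 1416646_at read 5.24 and 5.49 in positive and 4.45 and 4.60 in negative arrays, a difference of 0.84 ± 0.195 (SE, n = 2 per group, limma adjusted p = 0.252). Afp was singled out after its values were seen, and only 1 of its 5 probe sets lay above the lower quartile in all 4 arrays.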
